A study of Mus musculus with 12 samples.

Results

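OCY454 cells, a mouse line with osteocyte features, divide at 33 °C and differentiate once they are moved to 37 °C. Osteocytes are the cells embedded in bone matrix, where they sense load and direct other bone cells. The line labelled Piezo1 KO lacked Piezo1 exons 19 to 21 after CRISPR-Cas9 editing, and the unedited line was labelled WT. Poly(A) RNA of both lines was sequenced after 1, 14 and 28 days at 37 °C. The results below describe the second interval of that course in the KO line: the 2 KO libraries of day 28 against the 2 KO libraries of day 14, which are 4 of the 12 libraries of the series. Both groups carried the same deletion, had been maintained in alpha-MEM with 10% serum and 1% antibiotic-antimycotic, and differ in the labels by their days at 37 °C. The comparison asks how expression changed late in differentiation in cells with an edited Piezo1 gene. The 2 WT libraries of day 14 and the 2 of day 28 serve as the reference for the same interval. The labels state neither the number of edited clones nor that replicates were separate cultures, so every p-value reflects the spread among these samples alone, which may be technical.

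Total counts were 10868152 and 11927850 in the KO libraries of day 14 and 12283346 and 15357427 in those of day 28, within a range of 8590067 to 15357427 over the series. Levels are given as CPM, the count divided by the scaled library total. Among genes of at least 10 CPM, 5 of 9232 differed by more than 1.5-fold between the KO replicates at day 14 and 62 of 9083 at day 28. The mitochondrial share of counts was 1.88% and 1.93% at day 14 and 1.73% and 1.47% at day 28. Log2 fold changes are day 28 minus day 14, with the standard error of the fit after ±, n = 2 libraries a group, and each adjusted p is from edgeR's quasi-likelihood test with Benjamini-Hochberg adjustment over 13772 genes. A gene is said to have risen or fallen when its adjusted p was below 0.05. In bulk RNA, fewer cells of one kind and less RNA per cell cannot be told apart.

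Background helps in reading the results. Secretory cells such as bone-forming cells load the endoplasmic reticulum (ER) with collagen and other matrix proteins. When unfolded proteins build up there, the sensors ATF6, IRE1 and PERK start the unfolded protein response. ATF6 and the IRE1 product XBP1 turn on ER chaperone genes, while PERK, through the translation factor eIF2 alpha, favours the translation of ATF4, which turns on CHOP (Ddit3), amino acid transporters and aminoacyl-tRNA synthetases. Osteoblasts on their way to osteocytes reduce collagen production and gain a set of osteocyte genes such as Dmp1, Phex, Sost and Fgf23.

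Some ER chaperone and stress response genes that rose in the KO line between the 2 days carry known response elements in their promoters, and 6 of these sequences are shown because the results turn on these groups of genes. They are RefSeq sequences of GRCm38.p6, written 5′ to 3′ in the direction of the gene. Capitals mark the ER stress response element, which is CCAAT and CCACG with 9 bases between them, a second form of it, which is ATTGG and CCACG with 1 base between them, or the C/EBP-ATF response element TTGCATCA. Each was searched on both strands, and none of the printed matches overlap. A match is a description of the letters and not of a bound factor. The stretches lie at chr2:34771995-34772073 on the plus strand (Hspa5), chr15:88819490-88819568 on the plus strand (Creld2), chr12:17266461-17266539 on the plus strand (Pdia6), chr8:94386287-94386417 on the plus strand (Herpud1), chr2:119351019-119351086 on the plus strand (Chac1) and chr3:50443623-50443709 on the minus strand (Slc7a11).
Hspa5: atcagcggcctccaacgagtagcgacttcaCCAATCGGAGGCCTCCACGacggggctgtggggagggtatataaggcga
Creld2: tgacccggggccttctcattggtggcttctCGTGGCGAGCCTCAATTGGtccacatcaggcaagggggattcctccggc
Pdia6: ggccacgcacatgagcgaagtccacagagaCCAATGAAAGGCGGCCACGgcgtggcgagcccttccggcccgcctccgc
Herpud1: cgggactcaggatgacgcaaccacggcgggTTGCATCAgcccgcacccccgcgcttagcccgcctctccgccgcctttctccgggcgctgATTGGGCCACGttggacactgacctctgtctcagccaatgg
Chac1: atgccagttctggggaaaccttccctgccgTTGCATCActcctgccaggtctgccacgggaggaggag
Slc7a11: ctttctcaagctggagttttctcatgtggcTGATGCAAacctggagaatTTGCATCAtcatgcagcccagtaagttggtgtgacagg

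Within 250 bases before and 50 after the annotated start, the ER stress response element was found in 8 of the 17 ER chaperone and unfolded protein response genes with a promoter entry (47.1%), against 37 of 27025 genes (0.137%). The 8 genes were Calr, Canx, Creld2, Dnajc3, Hsp90b1, Hspa5, Pdia6 and Syvn1. The second form was found in Dnajb11 and Herpud1, 2 of the 17 genes, against 12 of the 27025. The C/EBP-ATF element was found in 5 of 20 genes of the integrated stress response (Atf3, Chac1, Fgf21, Nupr1 and Vldlr), in 4 of 13 aminoacyl-tRNA synthetase genes (Aars, Iars, Tars and Yars) and in 3 of 11 amino acid transporter genes (Slc1a4, Slc7a11 and Slc7a7), against 279 of 27025 genes (1.03%). These shares describe known elements in genes listed for these responses, and are no test of the change between the days. Sdf2l1, Ddit3 and Trib3, which rose strongly, held none of these elements in this window. Of the genes with a C/EBP-ATF match, Fgf21 and Vldlr did not pass the expression test and Slc7a7 fell. In lists that mostly fell, this element was found in 1 of 25 proteasome genes (Psmd13, which fell), 0 of 16 collagen chain genes and 0 of 20 glycolytic genes. Neither form of the ER stress response element was found in these lists.

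Piezo1, the targeted gene, encodes a stretch-gated cation channel and lies at chr8:122481698-122551329 on the minus strand (mm10). Its level in the KO libraries was 114.3 and 107.6 CPM at day 14 and 281.5 and 275.6 CPM at day 28. Both libraries of day 28 lay above both of day 14, and the rise of 1.33 ± 0.06 passed the test (adjusted p = 2.26e-13). At day 1 the KO libraries held 169.8 and 169.4 CPM, so day 14 was the lowest of the 3 days in this line. The count covers all exons of the gene outside the deletion and does not check the label. Exons of Ctu2 on the opposite strand overlap 24.6% of the exon bases of Piezo1, and the strand setting of the counting is not given in the sources used here. Such overlaps cover 10.6% to 21.3% of the exon bases of Ccne2, Cebpb, Chn2, Sqstm1, Timp3 and Txnip as well, and are given below for 4 genes with larger ones.

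Across all genes, 6981 of the 13772 tested differed between the days in the KO line, which is 50.7%. Of these, 3521 (25.6%) were higher and 3460 (25.1%) lower at day 28, and the median log2 fold change of all genes was -0.01. A change of more than 2-fold was called for 1710 genes (12.4%), 858 higher (6.23%) and 852 lower (6.19%). The CPM of the 2 days did not overlap for 75.1% of genes tested, so that absence of overlap alone sets few genes apart. Counts of list members below are to be read against these shares.

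**Figure D1:**
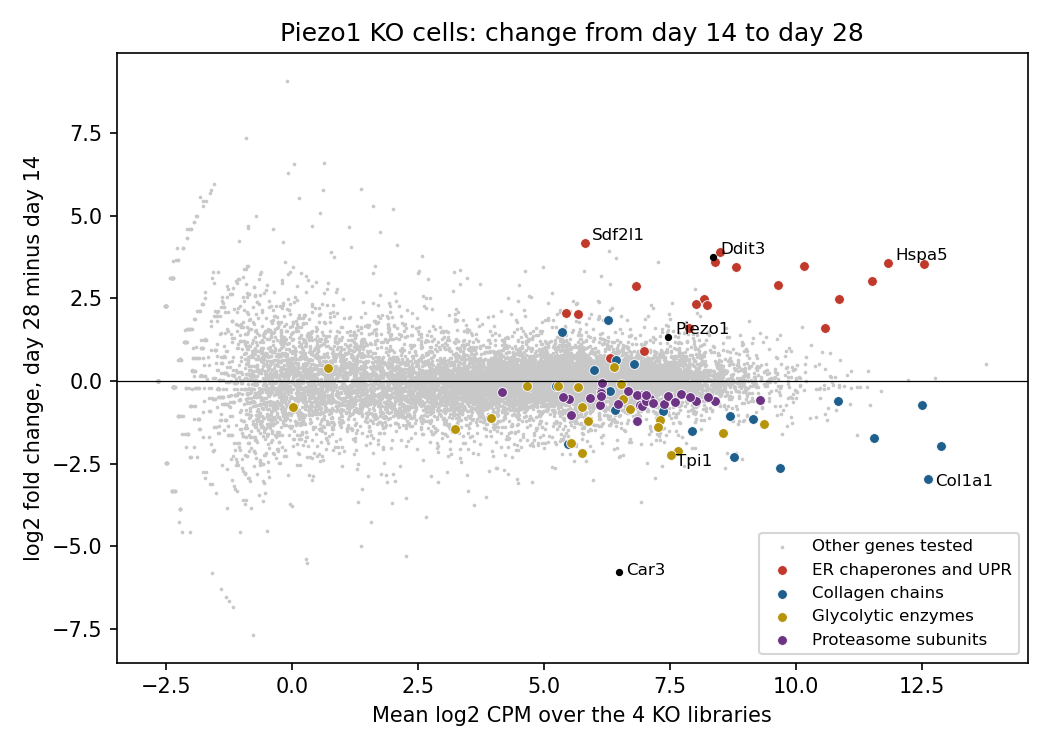
Log2 fold change of KO day 28 minus day 14 (vertical axis) against mean log2 CPM over the 4 KO libraries (horizontal axis), 1 point a gene, with 4 gene lists coloured and 7 genes named. The ER chaperone and unfolded protein response genes all lie above 0, with Sdf2l1 at 4.16, and collagen, glycolytic and proteasome genes lie mostly below, with Col1a1 at -2.98.

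ER chaperone and unfolded protein response genes rose together. All 20 listed genes were tested and all 20 rose, 18 of them by more than 2-fold, with a median of 2.68. Hspa5 (BiP), the main ER chaperone of the Hsp70 family and a regulator of all 3 stress sensors, lies at chr2:34771970-34777547 on the plus strand. Its level was 1080 and 1032 CPM at day 14 and 13110 and 11840 CPM at day 28, a rise of 3.56 ± 0.07 (11.8-fold, adjusted p = 4.29e-19). Both day 14 libraries were close to the day 1 values of 1014 and 995.6 CPM, and both day 28 libraries stood far above them. Hsp90b1 (Grp94), the ER member of the Hsp90 family, went from 1744 and 1763 CPM to 20960 and 19450 CPM, a rise of 3.53 ± 0.10 (adjusted p = 2.66e-17). It had the largest gain in CPM of any gene, a measure that grows with transcript length.

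The same pattern held for smaller chaperones and folding enzymes. Sdf2l1, part of an ER chaperone complex, went from 13.03 and 13.12 CPM to 237.6 and 230.0 CPM (4.16 ± 0.09, adjusted p = 7.25e-19), the largest change in the list. Creld2, an ER-resident secreted protein and stress marker, went from 94.95 and 90.01 to 1396 and 1349 CPM (3.89 ± 0.07, adjusted p = 1.79e-19), the smallest adjusted p of all genes. Manf, a secreted ER-stress factor, went from 97.5 and 94.98 to 1160 and 1153 CPM (3.59 ± 0.07). In each, the replicates of a day differed far less than the days did. The protein disulfide isomerases Pdia4, Pdia6 and Pdia3, which form disulfide bonds in secreted proteins, rose by 3.46 ± 0.08, 2.91 ± 0.07 and 2.48 ± 0.08. Calr (calreticulin), a lectin chaperone for glycoproteins, rose by 3.03 ± 0.07, from 1024 and 994.1 to 8505 and 8027 CPM. Herpud1, a component of the machinery that removes misfolded ER proteins, rose by 2.87 ± 0.12. The transcription factors of the response changed less: Atf6 rose by 1.61 ± 0.09 and Xbp1 by 0.92 ± 0.08. The count covers all Xbp1 transcripts and does not separate its spliced form.

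Together the 20 genes held 0.706% and 0.697% of all counts in the KO libraries of day 14 and 5.95% and 5.68% at day 28. At day 1 the share had been 0.635% and 0.63%. Among the 20 genes with the smallest p of this comparison, 10 belonged to the list. In WT the same share was 2.50% and 2.65% at day 14 and 3.84% and 4.41% at day 28, with 19 of the 20 genes called higher and a median of 0.68. All 20 rose more in KO than in WT by the test of the difference of the changes, with a median difference of 1.98. For Hspa5 the difference was 2.59 (adjusted p = 2.18e-14). Its level in KO minus WT was -2.28 on the log2 scale at day 14 (adjusted p = 5.74e-16) and 0.31 ± 0.07 at day 28 (adjusted p = 7.59e-04).

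Genes of the integrated stress response, which ATF4 and CHOP control, also rose. Of 20 listed and tested, 17 rose, 1 fell and 2 did not pass the test, with a median of 1.57. Ddit3 (CHOP), a transcription factor tied to ER-stress cell death, went from 84.57 and 93.44 CPM at day 14 to 1250 and 1144 CPM at day 28 (3.75 ± 0.09, adjusted p = 2.03e-18). Trib3, a pseudokinase induced by CHOP, went from 22.37 and 24.86 to 302.3 and 317.5 CPM (3.71 ± 0.08, adjusted p = 7.25e-19). Both genes were more than 10-fold higher in each day 28 library than in either day 14 library. Ppp1r15a (GADD34), which directs the removal of the eIF2 alpha phosphate, rose by 3.17 ± 0.10, Cebpb by 2.39 ± 0.08, Atf5 by 1.77 ± 0.07 and the asparagine synthetase gene Asns by 1.65 ± 0.07. Atf4 itself went from 368.7 and 382.0 to 1023 and 1038 CPM (1.46 ± 0.06, adjusted p = 2.62e-14). Chac1, which degrades glutathione, rose by 1.71 ± 0.15. Ddit4 (REDD1), an mTORC1 inhibitor that also responds to low oxygen, was the exception and went from 24.07 and 26.4 to 6.488 and 7.062 CPM (-1.89 ± 0.18, adjusted p = 1.83e-08). Vldlr (-0.14 ± 0.06) and Fgf21 (at most 0.09439 CPM in the 4 libraries) were the 2 not called, and with library totals only Vldlr was called lower (-0.18). In WT 16 of the 20 rose and 1 fell with a median of 0.45, and 16 changed more upward in KO.

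Amino acid supply genes followed in part. Of 15 amino acid transporter genes, 10 rose, 2 fell (Slc7a6 and Slc7a7) and 3 were not called, with a median of 1.49. The fall of Slc7a7 (-0.96) was not called without KO day 14 replicate 1 (-0.94), without replicate 2 of that day (-0.99) or without KO day 28 replicate 2 (-0.71), nor in DESeq2 (-0.96). Slc7a11, the cystine-glutamate exchanger, went from 3.587 and 3.686 CPM to 33.13 and 30.15 CPM (3.11 ± 0.18, adjusted p = 1.03e-11). Slc3a2, the heavy chain shared by several transporters, went from 119.3 and 122.4 to 633.2 and 632.8 CPM (2.39 ± 0.07, adjusted p = 7.80e-17). Its light chain Slc7a5 (LAT1) rose by 1.87 ± 0.07 and the glycine transporter Slc6a9 by 2.40 ± 0.11. Exons of other genes on the opposite strand overlap 38.6% of the exon bases of Slc6a9. Of 20 cytosolic aminoacyl-tRNA synthetase genes, which charge tRNAs with amino acids, 14 rose and 4 fell, with a median of 0.65. Wars went from 35.11 and 34.89 to 136.9 and 127.4 CPM (1.92 ± 0.09) and Sars from 283.4 and 299.7 to 778.6 and 749.3 CPM (1.39 ± 0.06). The 4 that fell were Hars, Kars, Rars and Dars, by between -0.73 and -0.22, and Dars was not called without KO day 28 replicate 2 (-0.15). The members of this list did not move as one: the same machinery held genes that rose more than 2-fold and genes that fell.

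**Figure D2:**
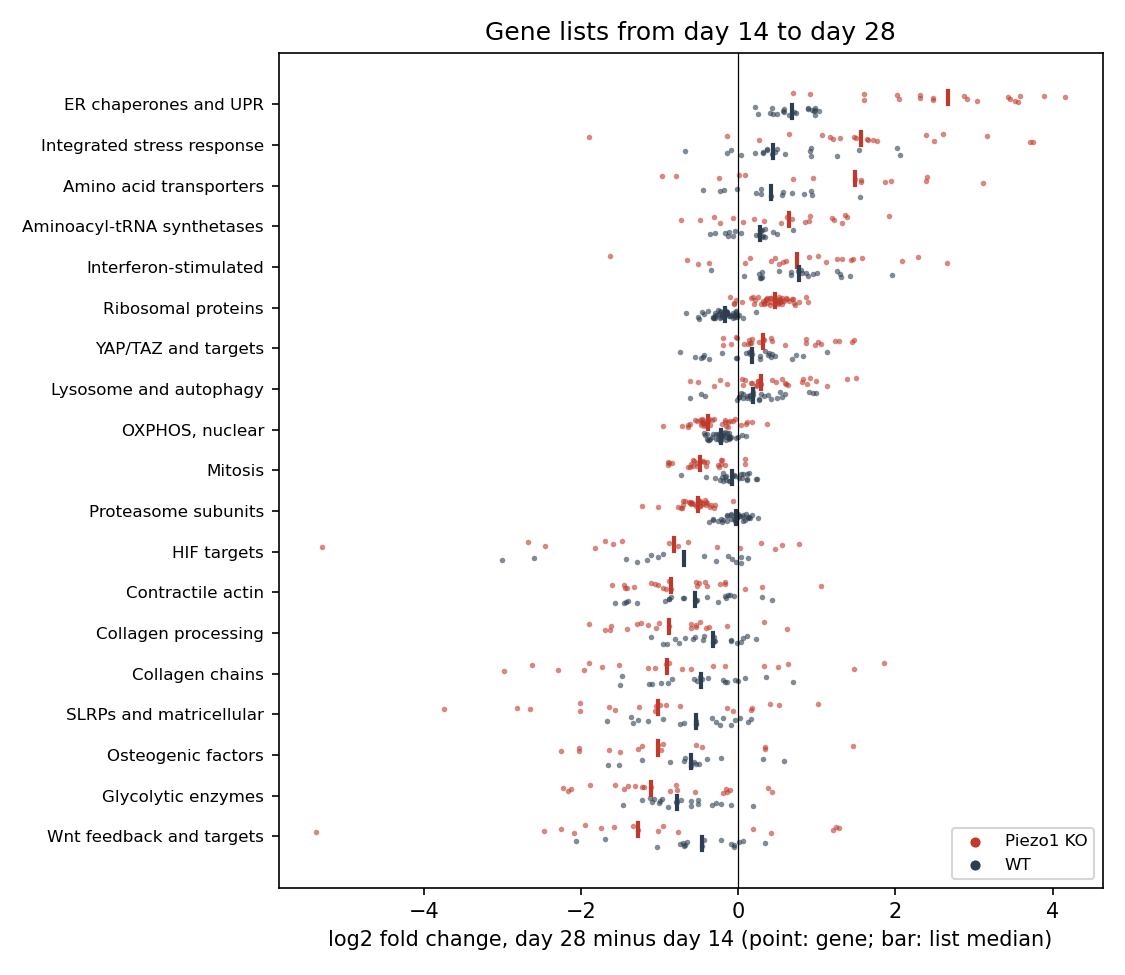
Log2 fold change of day 28 minus day 14 for the members of 19 gene lists, 1 point a gene and a bar at the median, in the KO line (red) and the WT line (dark). The KO median of ER chaperones was 2.68 against 0.68 in WT, and that of Wnt feedback and target genes -1.27 against -0.46.

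Genes of protein removal and protein production moved differently. Of 31 proteasome subunit genes, which build the main protease of the cytosol, 30 fell and none rose, with a median of -0.51, and Psmd8 (-0.06 ± 0.07) was not called. Psma7 went from 174.9 and 176.2 CPM to 73.01 and 77.62 CPM (-1.22 ± 0.07, adjusted p = 1.29e-11), and Psma5 from 68.81 and 63.6 to 29.93 and 34.84 CPM (-1.02 ± 0.10). The other falls were less than 2-fold, and for Psmd1 the levels were 782.8 and 748.5 CPM at day 14 and 513.3 and 508.8 CPM at day 28. In WT the median was -0.03 with 6 lower and 1 higher, and 25 of the 31 differences of change were called, all below 0. Of 46 cytosolic ribosomal protein genes, 41 rose and none fell, by a median of 0.47. Rps20 went from 229.4 and 237.0 to 442.7 and 407.2 CPM (0.87 ± 0.06, adjusted p = 4.49e-10), and Rpl4 from 903.3 and 926.5 to 1567 and 1468 CPM (0.73 ± 0.06). In WT 22 of these genes fell and 1 rose, and 41 of the differences were called, all above 0. Ribosomal protein genes have many processed pseudogenes, and how reads that map to several places were counted is not given in the sources used here.

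Lysosomal and autophagy genes rose more often than they fell, with 19 of 29 higher, 3 lower and a median of 0.29. Sqstm1 (p62), an autophagy receptor, went from 498.6 and 511.3 to 1250 and 1399 CPM (1.39 ± 0.07, adjusted p = 3.93e-13). Gpnmb, a lysosome-associated glycoprotein, went from 134.9 and 147.5 to 354.6 and 441.9 CPM (1.5 ± 0.08). The 3 that fell were Atp6v0a1, Ctsa and Ctsb. Sqstm1 and Gpnmb also rose in WT, by 0.99 and 0.90. Hmox1, the heme-degrading oxygenase, rose by 2.22 ± 0.10 and the glutathione synthesis gene Gclc by 1.82 ± 0.14, whereas Txnip, an inhibitor of thioredoxin, went from 50.69 and 42.26 to 6.747 and 7.606 CPM (-2.68 ± 0.12, adjusted p = 1.82e-13). Of all 22 antioxidant genes tested, 7 rose and 8 fell.

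**Figure D3:**
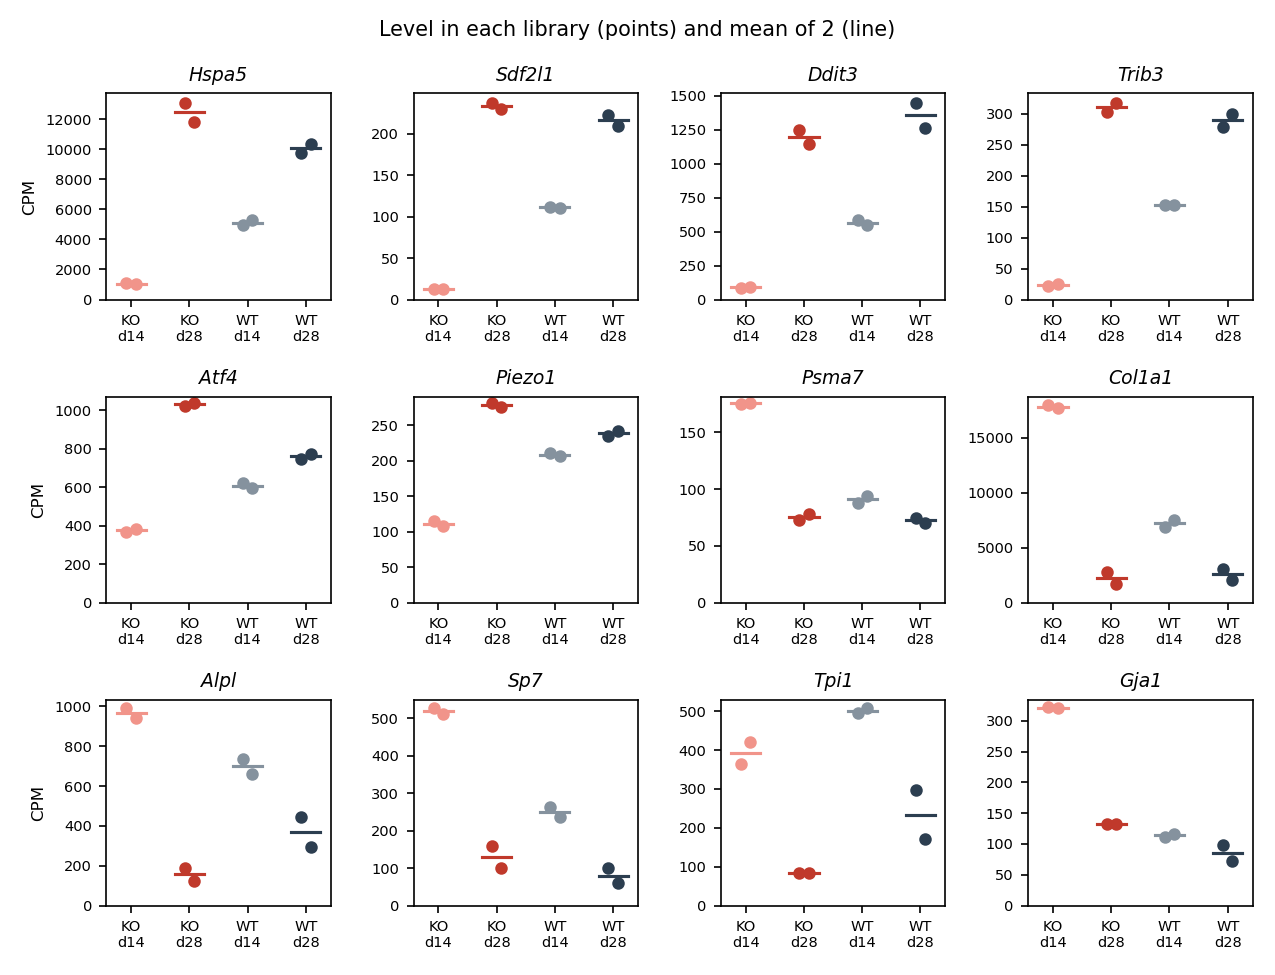
Level of 12 genes in CPM (vertical axes, each from 0) in each KO and WT library of day 14 and day 28, with points for libraries and a line at the mean of 2. Hspa5, Sdf2l1, Ddit3 and Trib3 are lowest in the KO libraries of day 14, while Col1a1, Alpl, Sp7 and Gja1 are highest there.

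Bone matrix genes fell. Of 20 collagen chain genes tested, 14 fell, 5 rose and 1 was not called, with a median of -0.90. Col1a1, which encodes the main chain of bone collagen and lies at chr11:94936224-94953042 on the plus strand, was at 17930 and 17680 CPM at day 14 and at 2813 and 1710 CPM at day 28, a fall of -2.98 ± 0.17 (adjusted p = 4.78e-12). It had the largest loss in CPM of any gene, and its partner Col1a2 had the next, from 14900 and 14930 to 4266 and 3403 CPM (-1.96 ± 0.11, adjusted p = 4.23e-12). In the first interval, from day 1 to day 14, Col1a1 had risen by 1.46 in the KO line, and that value shares the day 14 libraries with the fall. Col11a1, a chain of minor fibrils, went from 2066 and 2031 to 358.9 and 304.8 CPM (-2.63 ± 0.09, adjusted p = 1.13e-15). The 5 that rose were Col18a1 (1.86 ± 0.08), Col5a3 (1.47), Col15a1 (0.64), Col4a1 (0.51) and Col4a2 (0.32, not called at 0.23 without KO day 28 replicate 2), of which Col4a1, Col4a2, Col15a1 and Col18a1 encode collagens of basement membranes or their surroundings. The collagen chain genes together held 5.22% and 5.24% of counts at day 14 and 1.67% and 1.35% at day 28. In WT 12 of the 20 fell and 2 rose, with a median of -0.47. The difference between the lines was called above 0 for 5 of them and below 0 for 9.

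The enzymes that modify and cross-link collagen fell with it. Of 21 genes, 18 fell, 2 rose and 1 was not called, with a median of -0.88. Loxl2, a lysyl oxidase that cross-links collagen, went from 221.0 and 244.3 to 66.44 and 59.01 CPM (-1.89 ± 0.12, adjusted p = 2.47e-11). Fkbp10, a collagen chaperone mutated in brittle bone disease, fell by -1.62 ± 0.09, and the prolyl hydroxylase subunit P4ha2 by -1.63 ± 0.10. The 2 that rose were P4hb (0.63), which is both a prolyl hydroxylase subunit and a protein disulfide isomerase of the ER, and Adamts2 (0.33). Of 20 proteoglycan and matricellular genes, 13 fell and 3 rose, with a median of -1.02. Omd (osteomodulin), a proteoglycan of mineralized matrix, went from 42.85 and 43.8 to 3.374 and 3.124 CPM (-3.74 ± 0.22, adjusted p = 9.80e-12). Sparc (osteonectin) went from 4117 and 4237 to 1579 and 1101 CPM (-1.64 ± 0.13). Fn1 (fibronectin) was among the 3 that rose, from 11660 and 11580 to 17350 and 16120 CPM (0.53 ± 0.07, adjusted p = 1.59e-06). In WT 14 of the 21 collagen-modifying genes fell and 0 rose, with a median of -0.32. The difference between the lines was called above 0 for 2 of these and below 0 for 13. Of the 20 proteoglycan and matricellular genes, 11 fell in WT and 0 rose, with a median of -0.54.

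Regulators of the bone-forming state fell as well. Of 15 osteogenic transcription factor genes, 12 fell, 2 rose and 1 was not called, with a median of -1.02. Sp7 (osterix), a factor osteoblasts need to form, went from 526.6 and 511.9 CPM at day 14 to 157.7 and 99.55 CPM at day 28 (-2.02 ± 0.16, adjusted p = 1.22e-09), and Runx2, the master regulator of the lineage, from 341.6 and 313.7 to 125.4 and 106.6 CPM (-1.5 ± 0.10). The day 28 values of both genes lay below both day 14 values. Dlx3, Dlx5, Dlx6, Msx2, Mef2c, Tcf7, Twist1, Sox11 and Zfp521 were also among the 12, with changes from -2.25 to -0.46. Atf4 and Sox4 (0.34 ± 0.12) rose, and Msx1 (0.35 ± 0.26) was not called. The rise of Sox4 was not called without either day 14 library (0.35 and 0.33) or without KO day 28 replicate 1 (0.04), nor in DESeq2 (0.35). The fall of Msx2 was not called without KO day 14 replicate 1 (-1.07) or KO day 28 replicate 2 (-1.04), and that of Sox11 not without the latter (-0.38). Runx2 fell more in KO than in WT (a called difference of -0.90), whereas the difference for Sp7 (-0.37, adjusted p = 0.263) and Mef2c (-0.01) did not pass the test.

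Mineralization genes split. Of 15 tested, 6 fell, 4 rose and 5 were not called, with a median of -0.13. Alpl, the phosphatase that frees phosphate for mineral, went from 991.1 and 942.2 CPM to 188.5 and 125.5 CPM (-2.63 ± 0.15, adjusted p = 7.49e-12). Smpd3, a sphingomyelinase needed for bone mineral, went from 452.0 and 424.7 to 47.32 and 22.75 CPM (-3.67 ± 0.22, adjusted p = 1.60e-11), and Ifitm5, an osteoblast membrane protein, from 63.33 and 64.98 to 9.429 and 5.976 CPM (-3.08 ± 0.17). Phospho1, Car2 and Ibsp also fell. Exons of Abi3 on the opposite strand overlap 84.2% of the exon bases of Phospho1. The 4 that rose were the phosphate transporter Slc20a1 (1.45 ± 0.07), Bglap2 (1.61 ± 0.13), osteopontin Spp1 (0.80 ± 0.09) and the pyrophosphate transporter Ank (0.73 ± 0.10). Bglap2 went from 15.86 and 16.46 to 48.18 and 50.32 CPM, while its near-identical neighbour Bglap (osteocalcin) stayed between 2.832 and 3.287 CPM, so how reads were split between the copies bears on both. Enpp1 (0.53 ± 0.28), Car12 (-0.75 ± 0.41), Slc20a2 (-0.13 ± 0.09), Ahsg (0.16 ± 0.54) and Bglap (0.09 ± 0.30) were the 5 not called, and Car12 was called without KO day 28 replicate 1 (-1.31). In WT 7 of the 15 fell and 3 rose, with a median of -0.40. The difference between the lines was called for 2 of the 15 above 0 and for 5 below.

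The 2 KO libraries of day 28 differed within these lists. Of the 12 osteogenic factors that fell, 11 were higher in replicate 1 than in replicate 2 at day 28, and so were 11 of the 14 collagen chains and 5 of the 6 mineralization genes that fell. The same held for 4 of the 14 glycolytic genes and 3 of the 22 mitosis genes that fell. It also held for 16 of the 19 contractile cytoskeleton genes, 11 of the 18 collagen-modifying genes and 3 of the 5 osteocyte list genes that fell. The share over all genes that fell was not computed, so these counts do not set the bone lists apart. For Col1a1 replicate 2 was the lower of the day 28 libraries, and both lay far below day 14.

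Late osteocyte genes were low at both days, and the osteocyte list did not rise as a group. Its summed level was 449 and 467 CPM at day 14 and 322 and 293 CPM at day 28, most of it from genes other than Dmp1, Phex, Mepe, Sost and Fgf23. Of 17 listed, 14 were tested, of which 5 fell, 1 rose and 8 were not called, with a median of -0.19. Dmp1, an osteocyte matrix phosphoprotein, stood at 7.268 and 7.286 CPM at day 14 and at 5.796 and 4.957 CPM at day 28 (-0.45 ± 0.25, adjusted p = 0.145). Phex, a peptidase that controls Fgf23, stood between 3.460 and 4.625 CPM (-0.20 ± 0.25), and Mepe between 0.8828 and 1.298 CPM (-0.18 ± 0.49). Sost (sclerostin), the Wnt inhibitor that mature osteocytes secrete, was below 1 CPM in all 4 libraries (0.35 ± 0.64, adjusted p = 0.683). Fgf23, the phosphate-regulating hormone, had 1 count in the 4 libraries together, and Kera and Slc38a5 had none. These levels set the labelled cell type against its markers. Matrix and early markers were well detected, Dmp1, Phex and Mepe were low, and Sost, Fgf23, Kera and Slc38a5 sat at or near 0. Ackr3 (-0.01 ± 0.88), Dkk1 (1.25 ± 1.18), Ptprz1 (0.17 ± 0.64) and Fbln7 (-0.05 ± 0.13) were not called either. Pdpn, an early marker tied to dendrite growth, went from 40.4 and 38.15 to 14.1 and 19.9 CPM (-1.19 ± 0.15, adjusted p = 8.45e-07). Tnfrsf19 (-1.34 ± 0.09), Hspb8 (-1.34 ± 0.11), Irx5 (-0.87 ± 0.12) and Cd44 (-0.37 ± 0.09, not called at -0.26 without KO day 28 replicate 2) fell too, and Fam20c, the kinase of secreted phosphoproteins, rose (0.73 ± 0.09). Gja1 (connexin 43), whose channels join osteocyte processes, went from 322.1 and 320.9 to 133.2 and 131.9 CPM (-1.28 ± 0.09, adjusted p = 1.07e-10), and Panx3 fell by -1.75 ± 0.19, the 2 of 6 tested connexin and pannexin genes that were called. In WT 7 of the 14 osteocyte list genes fell and 0 rose, with a median of -0.42. The difference between the lines was called for 1 of the 14 above 0 and for 3 below. Of the 6 connexin and pannexin genes, 4 fell in WT and 0 rose, with a median of -0.61. Their difference between the lines was called above 0 for 2 and below 0 for 1.

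Glycolytic enzyme genes fell. Of 21 tested, 14 fell, 1 rose (Hk2, 0.43 ± 0.10) and 6 were not called, with a median of -1.11. Without KO day 28 replicate 2 the value of Hk2 was 0.25 and was not called. Tpi1, triose phosphate isomerase, went from 365.4 and 422.0 CPM to 84.08 and 83.59 CPM (-2.23 ± 0.15, adjusted p = 7.14e-11). Aldoa, aldolase A, went from 399.4 and 440.1 to 90.92 and 100.5 CPM (-2.13 ± 0.15), and Ldha, lactate dehydrogenase A, from 618.0 and 667.0 to 212.6 and 222.2 CPM (-1.56 ± 0.13). In these 3 genes both day 28 libraries lay below both of day 14. WT moved the same way with 17 of 21 lower and a median of -0.78. The difference was called below 0 for 10 of the 21 genes, including Tpi1 (-1.14, adjusted p = 2.43e-04) and Aldoa (-1.36). Of 16 genes that the hypoxia-inducible factor (HIF) controls or that sense oxygen, 10 fell and 4 rose, with a median of -0.82. Ankrd37, a HIF target, went from 23.13 and 31.29 to 0.6055 and 0.747 CPM (-5.30 ± 0.32, adjusted p = 1.34e-11), and Egln3, an oxygen sensor, from 20.1 and 26.4 to 4.671 and 3.871 CPM (-2.46 ± 0.31). The 4 that rose were Ero1l (0.78 ± 0.09), an oxidase of ER disulfide formation, Vegfa (0.47), Car9 (0.55) and Kdm3a (0.29). The call of Car9 was lost without KO day 14 replicate 2 (0.37) and without KO day 28 replicate 2 (0.51), and in DESeq2 (0.56). Exons on the opposite strand overlap 26.4% of the exon bases of Ankrd37. In WT 10 of the 16 HIF and oxygen-sensing genes fell and 0 rose, with a median of -0.69. The difference between the lines was called above 0 for 3 of them and below 0 for 2.

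**Figure D4:**
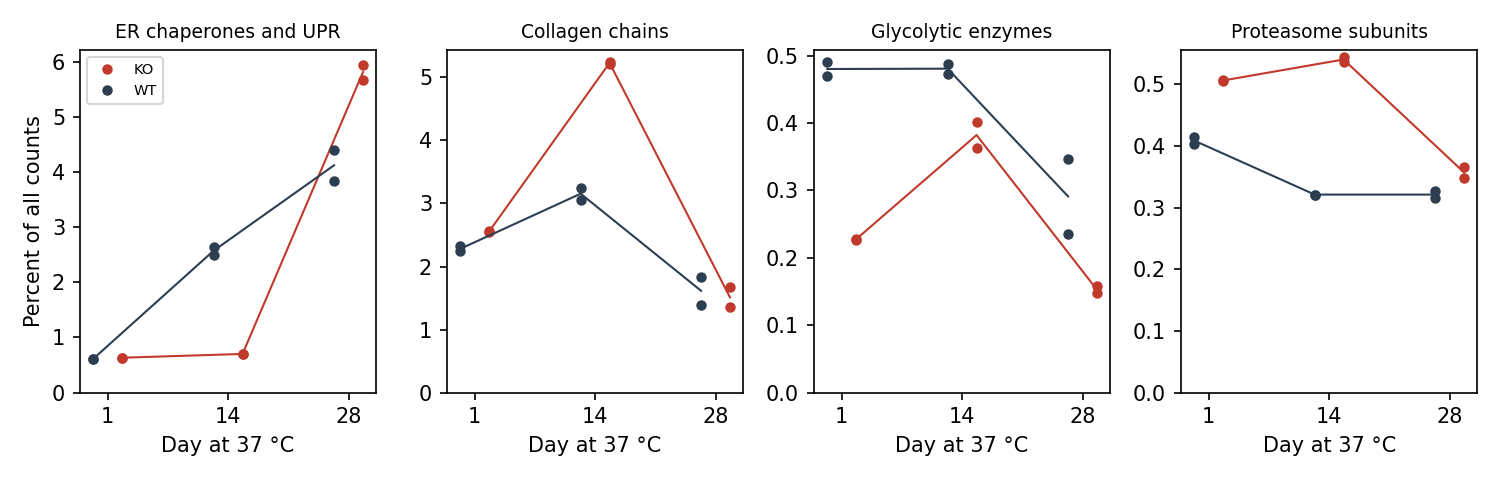
Percent of all counts held by 4 gene lists (vertical axes, each from 0) against days at 37 °C, 1 point a library and lines through the means of 2, in KO (red) and WT (dark). In KO the ER list goes from 0.706% and 0.697% at day 14 to 5.95% and 5.68% at day 28, and collagen chains peak at day 14.

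Nuclear-encoded subunits of oxidative phosphorylation fell slightly: 23 of 37 were lower and 1 higher, with a median of -0.38, and no change exceeded 2-fold. Ndufa4 had the smallest p of the list, with 43.32 and 41.15 CPM at day 14 and 23.27 and 20.51 CPM at day 28 (-0.95 ± 0.10). Of 12 mitochondrially encoded genes 4 fell and none rose, a count that was 2 without either day 14 library or KO day 28 replicate 2, and 7 with only the groups compared or with no filter on low counts. mt-Nd5 went from 3665 and 3622 to 2257 and 2172 CPM (-0.72 ± 0.11, adjusted p = 1.47e-05). Of 13 fatty acid synthesis genes 8 fell and 1 rose, against 5 and 2 without KO day 14 replicate 1. Elovl6, a fatty acid elongase, went from 66.17 and 62.83 to 13.67 and 17.79 CPM (-2.02 ± 0.13, adjusted p = 4.82e-11). Sterol synthesis genes divided, with 8 higher and 5 lower of 22 (3 lower without KO day 14 replicate 1), and Insig1, the sterol feedback protein, rose by 1.46 ± 0.08.

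Genes of mitosis fell by small amounts. Of 25 tested, 22 fell, none rose and 3 were not called, with a median of -0.48. Cenpe, a kinetochore motor, went from 517.7 and 527.5 to 279.7 and 302.5 CPM (-0.84 ± 0.06, adjusted p = 3.55e-10), and Mki67 from 1209 and 1235 to 787.2 and 787.4 CPM (-0.63 ± 0.06, adjusted p = 1.35e-08). Mki67 was thus still plainly detected at day 28. None of the 22 fell by more than 2-fold. DNA replication genes did not share this direction: 10 of 25 rose and 5 fell, with a median of 0.15. Mcm2, a helicase subunit, went from 400.6 and 405.4 to 543.9 and 535.7 CPM (0.42 ± 0.06), while Ccne1 and Ccne2, the E-type cyclins, fell by -0.97 ± 0.14 and -0.62 ± 0.07. In WT 7 of the mitosis genes fell and 1 rose, and 16 differences were called, all below 0.

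The contractile cytoskeleton fell. Of 23 genes, 19 fell and 1 rose, with a median of -0.86. Tpm1, a tropomyosin of stress fibres, went from 1485 and 1456 to 505.9 and 458.3 CPM (-1.61 ± 0.07, adjusted p = 1.24e-13), and Myl9, a myosin light chain, from 118.9 and 126.4 to 50.09 and 47.94 CPM (-1.33 ± 0.08). The difference from WT was called for Tpm1 (-0.74) and not for Myl9 (0.08, adjusted p = 0.678). The genes linked to YAP and TAZ, coactivators that respond to stiffness and shape, moved the other way, with 15 of 26 higher, 1 lower and a median of 0.32. Amotl2, an inhibitor and target of YAP, went from 133.3 and 132.6 to 351.0 and 373.3 CPM (1.45 ± 0.08, adjusted p = 8.86e-12), and Wwtr1 (TAZ) from 165.1 and 160.6 to 325.1 and 314.0 CPM (0.97 ± 0.08). Ccn1 (0.07 ± 0.07) and Ccn2 (0.16 ± 0.21), the most used target genes, were not called. The 1 that fell was Yap1 itself (-0.20 ± 0.07, adjusted p = 0.0315), a call that was lost without KO day 14 replicate 1 (-0.14), without KO day 28 replicate 1 (-0.20) or replicate 2 (-0.20), in DESeq2 and with no filter on low counts. Among stretch-gated and other mechanosensitive channels 6 of 15 rose, among them Pkd2 (1.06 ± 0.06) beside Piezo1, and Trpv4 fell (-0.82 ± 0.12).

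Wnt signalling genes fell, with exceptions. Of 17 feedback and target genes of beta-catenin, 11 fell and 3 rose, with a median of -1.27. Axin2, the standard feedback gene, went from 43.7 and 46.89 to 12.8 and 8.896 CPM (-2.08 ± 0.15, adjusted p = 2.18e-10), and Apcdd1, an inhibitor, from 35.3 and 32.66 to 7.093 and 7.13 CPM (-2.25 ± 0.14). Nkd2, another inhibitor, had 114 counts in the 2 libraries of day 14 and 3 in those of day 28, which is 44.9-fold lower with a 95% interval of 15 to 221 that covers counting error only. Cyclin D1 (Ccnd1) rose from 96.28 and 93.01 to 219.6 and 239.0 CPM (1.28 ± 0.07, adjusted p = 3.36e-12). Exons on the opposite strand overlap 23.4% of those of Ccnd1. Of 30 Wnt ligand, receptor and secreted inhibitor genes 13 fell and 3 rose, among them Sfrp1 (-1.87 ± 0.12) and Wnt4 (-1.84 ± 0.13) lower and Wnt5a (0.73 ± 0.10) higher.

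Members of other signalling and matrix-turnover lists moved in both directions. Of 31 BMP and TGF-beta pathway genes 11 rose and 10 fell. Bmp2, a bone-inducing ligand, went from 62.39 and 62.06 to 315.1 and 300.8 CPM (2.31 ± 0.06, adjusted p = 4.48e-17), while Smad6 and Id3, feedback and target genes of that ligand family, fell by -1.58 ± 0.13 each. The rise of Bmp2 was larger than in WT (0.30), by a difference of 2.0 (adjusted p = 1.82e-12). Of 8 osteoclast-regulating factors tested, 2 rose and 4 fell, and 1 rose without KO day 14 replicate 1 or KO day 28 replicate 2. The list has 12 members, and Tnfsf11 (RANKL), Il6, Il11 and Pthlh did not pass the filter on low counts. Csf1, which osteoclast precursors need, went from 148.9 and 134.2 to 352.7 and 403.8 CPM (1.42 ± 0.08), and Tnfrsf11b (osteoprotegerin), which blocks osteoclast formation, from 42.66 and 46.2 to 13.06 and 8.285 CPM (-2.08 ± 0.16). Among matrix proteases and inhibitors, 3 of 19 rose and 11 fell. Timp3, an inhibitor, went from 76.45 and 86.66 to 419.3 and 413.6 CPM (2.35 ± 0.08), and Mmp2, a gelatinase, from 231.8 and 236.7 to 77.86 and 84.88 CPM (-1.52 ± 0.08). Plxna2, a semaphorin receptor, went from 403.6 and 380.9 to 64.88 and 66.75 CPM (-2.57 ± 0.12, adjusted p = 2.92e-13), within a list of 30 axon guidance genes of which 15 fell and 6 rose.

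Interferon-stimulated genes, which mark an antiviral state, rose from low levels. Of 22 tested, 15 rose and 1 fell, with a median of 0.76, close to the 0.78 of WT, in which 17 rose. Irf9, a subunit of the interferon-activated factor, went from 13.21 and 15.94 to 34.69 and 38.44 CPM (1.33 ± 0.11, adjusted p = 2.51e-09), and Bst2 from 11.14 and 14.74 to 28.72 and 47.94 CPM (1.58 ± 0.17). The difference between the lines was called for 6 of the 22, 4 above and 2 below 0. Of 17 antigen presentation genes 9 rose and 2 fell, with none lower without either day 14 library or KO day 28 replicate 1, and H2-K1 went from 150.4 and 154.3 to 269.4 and 277.0 CPM (0.84 ± 0.06). The class I genes have near-identical copies, which makes their separate counts uncertain.

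The largest changes of single genes were outside these lists in part. Among the 12 highest, Klf15, a transcription factor of metabolism, went from 0.1888 and 0.3429 CPM to 13.84 and 17.38 CPM (5.82 ± 0.38, adjusted p = 4.70e-11). Tfcp2l1 (5.29), Car6 (5.20), Gm17173 (4.66), 4933406M09Rik (4.50), Sspo (4.12), Lama3 (4.06) and Gdf15 (3.79), a stress-induced secreted factor, started from below 2 CPM as well. Cdsn (corneodesmosin), an adhesion protein of skin, went from 18.59 and 21.34 to 294.1 and 313.3 CPM (3.92 ± 0.09). Sdf2l1, Creld2 and Ddit3 completed the 12. The lowest was Car3, a carbonic anhydrase, at 665.1 and 655.2 CPM on day 14 and 15.57 and 9.1 CPM on day 28 (-5.77 ± 0.13, adjusted p = 1.43e-18). Car3 had risen by 3.46 between day 1 and day 14, in a comparison that shares the day 14 libraries. Ankrd37, Gpr35 (-4.98), Susd1 (-4.26), Grhl3 (-4.12), Omd, Ndufa4l2 (-3.69), Smpd3, Chn2 (-3.67), Adamtsl1 (-3.53), Pcolce2 (-3.50) and Kazald1 (-3.33) followed.

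Markers of blood, muscle, fat and endothelial cells were at low levels in the KO libraries of both days, and those of cartilage, osteoclasts and fibroblasts were higher. Summed over their lists, blood cell markers held 14.3 to 17.9 CPM, skeletal muscle markers 12.3 to 13.2 CPM and adipocyte markers 21.3 to 27.5 CPM in the 4 libraries. Myod1 and Myog had no count in any of them, the adipocyte genes Lep and Retn likewise, and the macrophage, endothelial and cartilage markers Adgre1, Pecam1 and Acan stayed below 1 CPM. The endothelial sum went from 4.06 and 3.94 to 11.2 and 12.8 CPM, chiefly through Vwf (3.46 ± 0.28). The osteoclast list held 231 and 254 CPM at day 14 and 273 and 279 CPM at day 28, mostly through Ctsk, which rose by 0.25 ± 0.07 and was not called without KO day 14 replicate 1 (0.20) or KO day 28 replicate 2 (0.18). The chondrocyte list went from 899 and 954 to 300 and 189 CPM, chiefly through Col11a2 (-2.19 ± 0.16), which bone cells also express, and the fibroblast and tendon list from 220 and 213 to 109 and 101 CPM. The part of these markers in the other results was not tested.

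Over the same interval in WT, 4778 genes were called (34.7%) and 618 of them changed by more than 2-fold (4.49%). Among genes of at least 10 CPM, the WT replicates differed by more than 1.5-fold for 24 of 9419 at day 14 and 167 of 9326 at day 28. Of all genes tested, 17.9% rose and 16.8% fell in WT. Of the genes that rose in KO, 47.9% also rose in WT and 4.94% fell. Of those that fell in KO, 40.3% also fell in WT and 3.12% rose. The genes that moved alike in both lines were 68.5% of those that rose in WT and 60.1% of those that fell. In KO, 25.6% of all genes tested rose and 25.1% fell. The change differed between the lines for 3323 genes (24.1%), 1738 above and 1585 below 0. It was called more upward for 1426 of the genes that rose in KO and more downward for 1335 of those that fell. No difference was called for 59% of the genes that rose in KO and 60.7% of those that fell. The difference uses the same KO libraries as the KO change, so agreement in direction is partly built in. The row of a construct with YAP and a green fluorescent protein held 82 and 45 counts in the WT libraries of day 14. In those of day 28 it held 224 and 75, against 0 to 7 counts in the KO libraries of all days. The part of that construct in the difference between the lines was not tested.

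**Figure D5:**
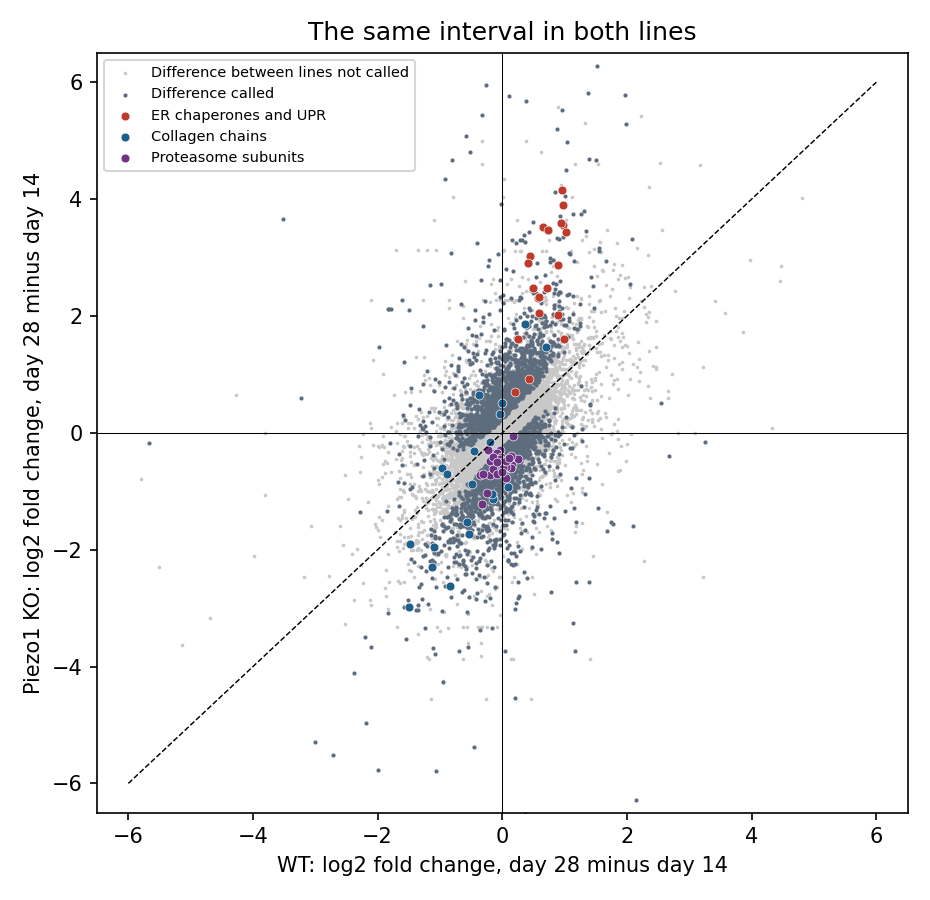
Log2 fold change of day 28 minus day 14 in KO (vertical axis) against WT (horizontal axis), 1 point a gene, with the dashed line where both are equal; 9 genes lie outside the axes. ER genes lie well above the line and proteasome genes below it, and 3323 genes are called for the difference.

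Named here are the 6 highest and the 6 lowest differences between the lines. Palm3, a membrane-associated protein, went from 0.2832 and 0.08572 CPM to 7.699 and 5.297 CPM in KO and from 11.04 and 11.46 to 7.537 and 7.43 CPM in WT, a difference of 5.67 (adjusted p = 2.46e-08). Klf15 (4.44), Car6 (4.31), 4933406M09Rik (3.47) and Tfcp2l1 (3.31) rose in both lines and more in KO. Cdsn rose in KO and was not called in WT, which stood at 178.2 and 193.7 CPM at day 14 and 169.4 and 198.2 CPM at day 28, and the difference was 3.94 (adjusted p = 4.09e-15). At the other end, Nkd2 (-4.91), Car3 (-3.78) and Susd1 (-3.31) fell in both lines and more in KO. Aldh3a1, an aldehyde dehydrogenase, fell in KO from 10.19 and 12.09 to 3.806 and 3.939 CPM and rose in WT from 2.192 and 1.851 to 7.677 and 6.027 CPM (difference -3.27, adjusted p = 9.41e-08). Ptgs1 (-3.21) and Chn2 (-3.12) fell in KO and were not called in WT.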

How the data were processed

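Poly(A) RNA of 12 libraries was measured, 2 in each of 6 groups by line and day. The deposited values are read counts per gene, and per the submitters' processing notes STAR, featureCounts, Subread and edgeR were used with the build mm10. Not given in the sources used here are versions, annotation, strand setting and the treatment of multimapping reads. Of 32248 rows, 9345 were empty. Rows for 3 transgenes were left out of the tests.

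The analysis used edgeR 4.0.16 in R 4.3.3. filterByExpr (minimum count 10, minimum total 15) kept 13772 genes, libraries were scaled by TMM, and glmQLFit with 1 coefficient for each of the 6 groups left 6 residual degrees of freedom, with 5.53% as the common biological coefficient of variation. Contrasts were tested two-sided with glmQLFTest and adjusted by the Benjamini-Hochberg method, with a threshold of 0.05. Standard errors were derived from fold change and F statistic. The fit was also run on counts simulated from its own dispersions, with few genes changed. That setting does not cover a change as broad as the one between these days. The binomial interval given for a low count is exact (Clopper-Pearson) and covers counting error only.

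Named are Piezo1, the 12 highest and 12 lowest changes among called genes whose days do not overlap and whose mean log2 CPM reaches 1, the 6 largest gains and 6 largest losses in CPM, the 6 highest and 6 lowest differences between the lines, up to 6 members of each list by smallest p, and all tested members of the osteocyte, osteogenic and mineralization lists, except 1 gene that is not reported here. Genes that went against their list, members not called, genes with a promoter match, Atf6, Xbp1, Ccn1, Ccn2 and the markers of other cell types were named after their values were seen. The members and lists were chosen with earlier results of these data known. Gene positions and exon overlaps are from GENCODE M21, which matched 99.2% of the genes tested. Alternatives were other scalings, DESeq2 1.42.0, other filters, fewer libraries and the replicate block.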

Additional observations from a re-analysis of the deposited data

Results flagged for a closer look

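The change from day 14 to day 28 differed between KO and WT for 3323 genes by the test of the difference itself, and Piezo1 was among them with a difference of 1.13. The largest differences above 0 were those of Palm3 (5.67), Klf15 (4.44), Car6 (4.31), Cdsn (3.94), 4933406M09Rik (3.47) and Tfcp2l1 (3.31). The largest below 0 were those of Nkd2 (-4.91), Car3 (-3.78), Susd1 (-3.31), Aldh3a1 (-3.27), Ptgs1 (-3.21) and Chn2 (-3.12).

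Reads of a construct with YAP and a green fluorescent protein appeared in a row outside the comparisons. Whether reads of Yap1 itself can be counted in that row is not given in the sources used here. In WT the reads of that row numbered 82 and 45 at day 14 and 224 and 75 at day 28, against 2 and 3 at day 1.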

How the results depend on the processing

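The number of genes called between the KO days was 6981 and stayed within 1.5 times of that: 6946 with library totals only, 6968 with DESeq2 size factors, 6025 in DESeq2, 6863 with no filter on low counts, 6958 with at least 1 CPM in at least 2 libraries and 7063 with only the groups compared. The WT count of 4778 was 3815 in DESeq2 and 3244 with only the groups compared. For the difference of the changes, the count of 3323 became 2613 and 2727. Leaving out a library gave 5562 to 6218 for KO, 1498 to 1728 for changes over 2-fold, 3314 to 5518 for WT and 2440 to 4179 for the difference of the changes. With library totals only, 45.5% of the calls were higher, against 50.4%. Same-numbered replicates did not deviate together between the KO days (correlation 0.009), the WT days (0.028) or the lines at day 14 (-0.009), but did to some degree between the lines at day 28 (0.246), which bears on the differences between the lines. The labels do not say that a number marks a shared culture or batch. With the replicate number as a block the calls were 6942 for KO, 1702 over 2-fold, 4739 for WT and 3308 for the difference. Uncalled genes changed sign when a library was left out: Ackr3 ran from -0.39 to 0.35, Ahsg from -0.23 to 0.52, Bglap from -0.011 to 0.19, Fbln7 from -0.13 to 0.031, Fgf21 from -0.28 to 3.14, Mepe from -0.45 to 0.10 and Sost from -0.18 to 0.99. With 2 libraries a group, changes that are small beside their standard error were not detectable.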

Other observations

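Laminin and integrin genes, which anchor cells to matrix, moved in both directions in the KO line. Of 21 tested, 8 rose and 5 fell, against 5 and 3 without KO day 14 replicate 1. Lama1, a laminin alpha chain of basement membranes, went from 14.54 and 15 CPM at day 14 to 80.28 and 71.57 CPM at day 28 (2.36 ± 0.10, adjusted p = 3.26e-14). Itgb5, an integrin beta subunit, went from 141.0 and 141.3 to 296.9 and 325.6 CPM (1.14 ± 0.06), while Lamb1, a laminin beta chain, went from 25.2 and 26.57 to 10.03 and 9.847 CPM (-1.38 ± 0.13). All 3 changes differed from those in WT by the test of the difference, by 2.34, 0.93 and -1.21.

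Of 16 circadian clock genes 8 rose and 4 fell. The repressors Cry1 (1.23 ± 0.10) and Per2 (1.03 ± 0.08) were among those that rose, and the hour at which cells were collected is not given in the sources used here. Of 14 genes of the insulin-like growth factor system 5 rose and 6 fell. The ligand gene Igf1 went from 10.1 and 10.8 to 1.384 and 2.037 CPM (-2.58 ± 0.25, adjusted p = 1.87e-08), and Igfbp4, a binding protein, from 197.2 and 184.7 to 405.0 and 414.1 CPM (1.10 ± 0.07, adjusted p = 5.47e-11). Of 12 Notch pathway genes 2 rose and 5 fell, and Lfng, which modifies Notch receptors, went from 30.11 and 27.43 to 4.498 and 3.599 CPM (-2.84 ± 0.20).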
